A study of Rattus norvegicus with 24 samples.

Results

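The genes that let hippocampal cells sense and regenerate corticosterone, together with those of the corticotropin-releasing hormone (CRH) system, were followed across 4 groups of female rats that differed in ovarian status and estradiol. The 9 genes were taken by symbol from a table of 20318 features and comprised the corticosteroid receptors Nr3c1 and Nr3c2, the receptor cochaperone Fkbp4, the corticosterone-converting enzymes Hsd11b1 and Hsd11b2, the peptide Crh, its receptors Crhr1 and Crhr2, and its binding protein Crhbp. All 9 were present. The 8 whose normalised counts averaged 10 or more entered a test over 16119 genes. Hsd11b2 lay below that level and is described without a test. None of the 8 tested genes passed an adjusted p of 0.05 in any of the 6 comparisons between groups. The nearest were Nr3c1 and Hsd11b1, whose means were highest in ovariectomised rats given estradiol from the start. All libraries of that group also stood apart from every vehicle library in the level of LOC257642, described below. Estradiol and that difference between libraries cannot be told apart there.

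RNA was sequenced from the hippocampus of rats aged 6 months at surgery, in 24 libraries. SHAM rats, with ovaries in place, were given vehicle over 7 weeks (n = 7), and OVX rats, without ovaries, had the same vehicle course (n = 7). Rats of the remaining groups were ovariectomised too. In the Prevention group (n = 5) estradiol (E2) ran through all 5 weeks, whereas in the Treatment group (n = 5, numbered 1, 2, 5, 6 and 7 in the labels) 3 weeks of vehicle came before 2 weeks of estradiol. The weeks given thus add up to 7 in the vehicle groups and to 5 in the estradiol groups. The sources used here give no strain, estradiol dose or time from surgery to tissue collection. The labels number the libraries within a group without saying that each came from its own rat, so p-values measure the spread between these libraries, which may be technical. Values below are normalised counts in arbitrary units, group values are means ± SD, and changes are on the log2(normalised count + 1) scale.

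Corticosterone, the main glucocorticoid of the rat, acts in the hippocampus through a pair of nuclear receptors. The mineralocorticoid receptor (Nr3c2) binds it with high affinity and is largely occupied at rest, while the glucocorticoid receptor (Nr3c1) is occupied during stress and at the daily peak. Both wait in the cytosol in complexes with heat shock protein 90 and cochaperones such as FKBP52, the product of Fkbp4. Inside cells the enzyme 11β-HSD1 (Hsd11b1) regenerates corticosterone from inert 11-dehydrocorticosterone, and 11β-HSD2 (Hsd11b2) runs the inactivating reaction. CRH, known as the hypothalamic starter of the stress axis, is also made by hippocampal interneurons and acts on CRHR1 and CRHR2, and CRH-BP binds it outside the cell.

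The libraries held 35.4 to 38.8 M normalised counts each (M for mega), and an estimated 26.6 to 53.5 M reads. The 24 libraries were parted into 2 sets at a LOC257642 level of 16 on the log2 scale, a cut chosen after seeing the data. All 5 Prevention libraries and Treatment 1 and 2 lay above it, with an estimated 39.8 to 53.5 M reads. The other 17 had 26.6 to 40.2 M. The largest gap in LOC257642 lay higher and parted only Prevention 3 (19.73) and Treatment 1 (19.47) from the rest. No Prevention library lies in the set that holds every OVX and SHAM library, so in their comparison no value within a set can be had. Only Treatment has libraries in both sets. Any term for the 7-library set used below therefore rests on Treatment 1 and 2 against Treatment 5, 6 and 7. Markers of the hippocampus were present in every library (Prox1, of dentate granule cells, at 2035 to 4179.9 and Wfs1, of CA1 pyramidal cells, at 6917 to 22620). Markers of neighbouring tissue varied as well. A thalamus score, the mean log2 value of 10 thalamic marker genes, lay between 9.62 and 10.09 in 5 libraries (SHAM 5, OVX 2, Prevention 1 and 4, Treatment 6) and between 7.28 and 8.52 in the other 19. Their summed level ran from 3941 to 19069 normalised counts in SHAM, from 3368 to 14101 in OVX, from 4675 to 18173 in Prevention and from 3895 to 14011 in Treatment, and the defining markers Tcf7l2, Lef1, Prkcd and Slc17a6 were above 0 in every library. The choroid plexus marker Ttr ran from 281 to 136652, and 4 of the 5 libraries with a high thalamus score (all but SHAM 5) also had a choroid plexus score of 10.9 or more. Both scores are set beside the genes they moved with. In these bulk samples fewer cells of a type and less RNA per cell cannot be told apart.

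Since the comparisons turn on estradiol and the genes on corticosterone, the 250 bases before annotated transcript starts were searched for the binding letters of both hormone receptors on both strands. RefSeq (build GRCr8) held entries for 5 of the 9 genes: Nr3c1, Fkbp4, Crhr1, Crhr2 and Crhbp, in 7 windows. No window held the full estrogen response element (GGTCA and TGACC with 3 bases of any kind between them), present in 0.0239% of 33469 promoter windows of the same length, or the glucocorticoid response element (AGAACA and TGTTCT, spaced likewise), present in 0.012%. The shorter estrogen core GGTCA, which lies within the full element and occurs in 35.4% of all windows, was found in Crhr2 and Crhbp only. The glucocorticoid core TGTTCT, in 17.5% of all windows, was found in none of the 7. The Crhr2 and Crhbp windows are shown 5′ to 3′ with each GGTCA in capitals. The Crhr2 window lies at chr4:85581464-85581713 (minus strand), before a transcript start inside the gene, and its cores begin 227, 72 and 16 bases before that start. The Crhbp window lies at chr2:28439447-28439696 (minus strand), and its core begins 184 bases before the start. These are matches of letters, not binding sites.
Crhr2: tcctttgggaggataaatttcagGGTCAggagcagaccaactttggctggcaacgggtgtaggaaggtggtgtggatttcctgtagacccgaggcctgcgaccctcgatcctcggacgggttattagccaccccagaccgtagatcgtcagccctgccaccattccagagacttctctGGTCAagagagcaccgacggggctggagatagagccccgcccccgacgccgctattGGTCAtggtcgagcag
Crhbp: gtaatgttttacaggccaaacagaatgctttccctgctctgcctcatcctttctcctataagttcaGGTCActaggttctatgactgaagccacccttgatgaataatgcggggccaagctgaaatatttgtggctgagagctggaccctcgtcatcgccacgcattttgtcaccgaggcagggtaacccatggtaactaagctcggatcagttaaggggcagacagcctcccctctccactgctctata

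The glucocorticoid receptor gene Nr3c1 varied little between libraries, its highest value being 1.62 times its lowest. In the 5 Prevention libraries it measured 4237, 4159.8, 3699.8, 3661 and 3766. In the 5 Treatment libraries it measured 4109.6, 3397, 3554, 3459 and 3699.7. OVX libraries ran from 2618 through a median of 3615 to 3942, and SHAM libraries from 2902 through a median of 3459 to 3775. The ranges of all 4 groups overlapped: 2 of 5 Prevention libraries lay above every OVX library, and all 5 lay above the OVX median. Group means ran in the order Prevention (3905 ± 272), Treatment (3644 ± 284), SHAM (3433 ± 276) and OVX (3351 ± 506), and neighbours in this order differed by less than 1 SD.

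OVX minus SHAM for Nr3c1 was -0.05 (SE 0.08), with a 95% interval from -0.21 to 0.12 and an adjusted p of 0.954 (limma). Prevention lay 0.23 (SE 0.09) above OVX, which is 17.5% on the linear scale, with an unadjusted p of 0.0122 and an adjusted p of 0.151 (limma). It lay 0.19 (SE 0.09) above SHAM, with an unadjusted p of 0.0391 and an adjusted p of 0.343 (limma). Treatment lay 0.13 (SE 0.09) above OVX, with an adjusted p of 0.73 (limma). With the 7-library set as a term the Prevention minus OVX value was 0.17 (SE 0.16), and without the 5 libraries of high thalamus score it was 0.18 (SE 0.10, unadjusted p = 0.07).

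The mineralocorticoid receptor gene Nr3c2 spread more widely, from 1641 to 3346. SHAM libraries ran from 1859 through 2566 to 3346, and OVX libraries from 1641 through 2392 to 2520.1. Prevention libraries measured 2537, 2491, 3250.4, 1795 and 2848, and Treatment libraries 2176, 2954, 2292, 2133 and 2973. None of the 7 OVX libraries lay above the SHAM median, although the ranges overlapped. Group means ran in the order SHAM (2669.7 ± 495), Prevention (2584 ± 536), Treatment (2506 ± 422) and OVX (2256 ± 325), each closer to its neighbour than 1 SD. OVX minus SHAM was -0.23 (SE 0.13, 95% interval -0.51 to 0.04), with an unadjusted p of 0.0864 and an adjusted p of 0.827 (limma).

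In each group the library with the lowest Nr3c2 had a high thalamus score: SHAM 5, OVX 2, Prevention 4 and Treatment 6. The other thalamus-rich library, Prevention 1, stood in the middle of its group. Among the 19 libraries of low thalamus score, Nr3c2 and the score gave r = -0.27 (permutation p = 0.259), and 0.03 without the 2 farthest of them. The thalamus-rich library or libraries of a group minus its others gave a log2 difference in Nr3c2 of -0.58 in SHAM, -0.52 in OVX, -0.42 in Prevention (with both Prevention 1 and 4) and -0.27 in Treatment. Without these 5 libraries the OVX minus SHAM value was -0.24 with a smaller error (SE 0.10, unadjusted p = 0.0195, adjusted p = 0.685), and the Prevention minus OVX value went from 0.18 (SE 0.14) to 0.28 (SE 0.12, unadjusted p = 0.0296, adjusted p = 0.322). In Treatment versus OVX the value was 0.15 (SE 0.14) with all libraries and 0.13 (SE 0.11) without these.

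Because the receptors share a ligand, the level of Nr3c2 relative to Nr3c1 was also formed in each library. It is a difference of log2 values, comparable between libraries but no ratio of receptor amounts. It averaged -0.38 ± 0.22 in SHAM, -0.57 ± 0.26 in OVX, -0.62 ± 0.33 in Prevention and -0.55 ± 0.29 in Treatment. The group means differed by about 1 SD at most, and the lowest and highest library of each group spanned -0.64 to -0.05 in SHAM and -1.03 to -0.19 in Prevention.

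**Figure D1:**
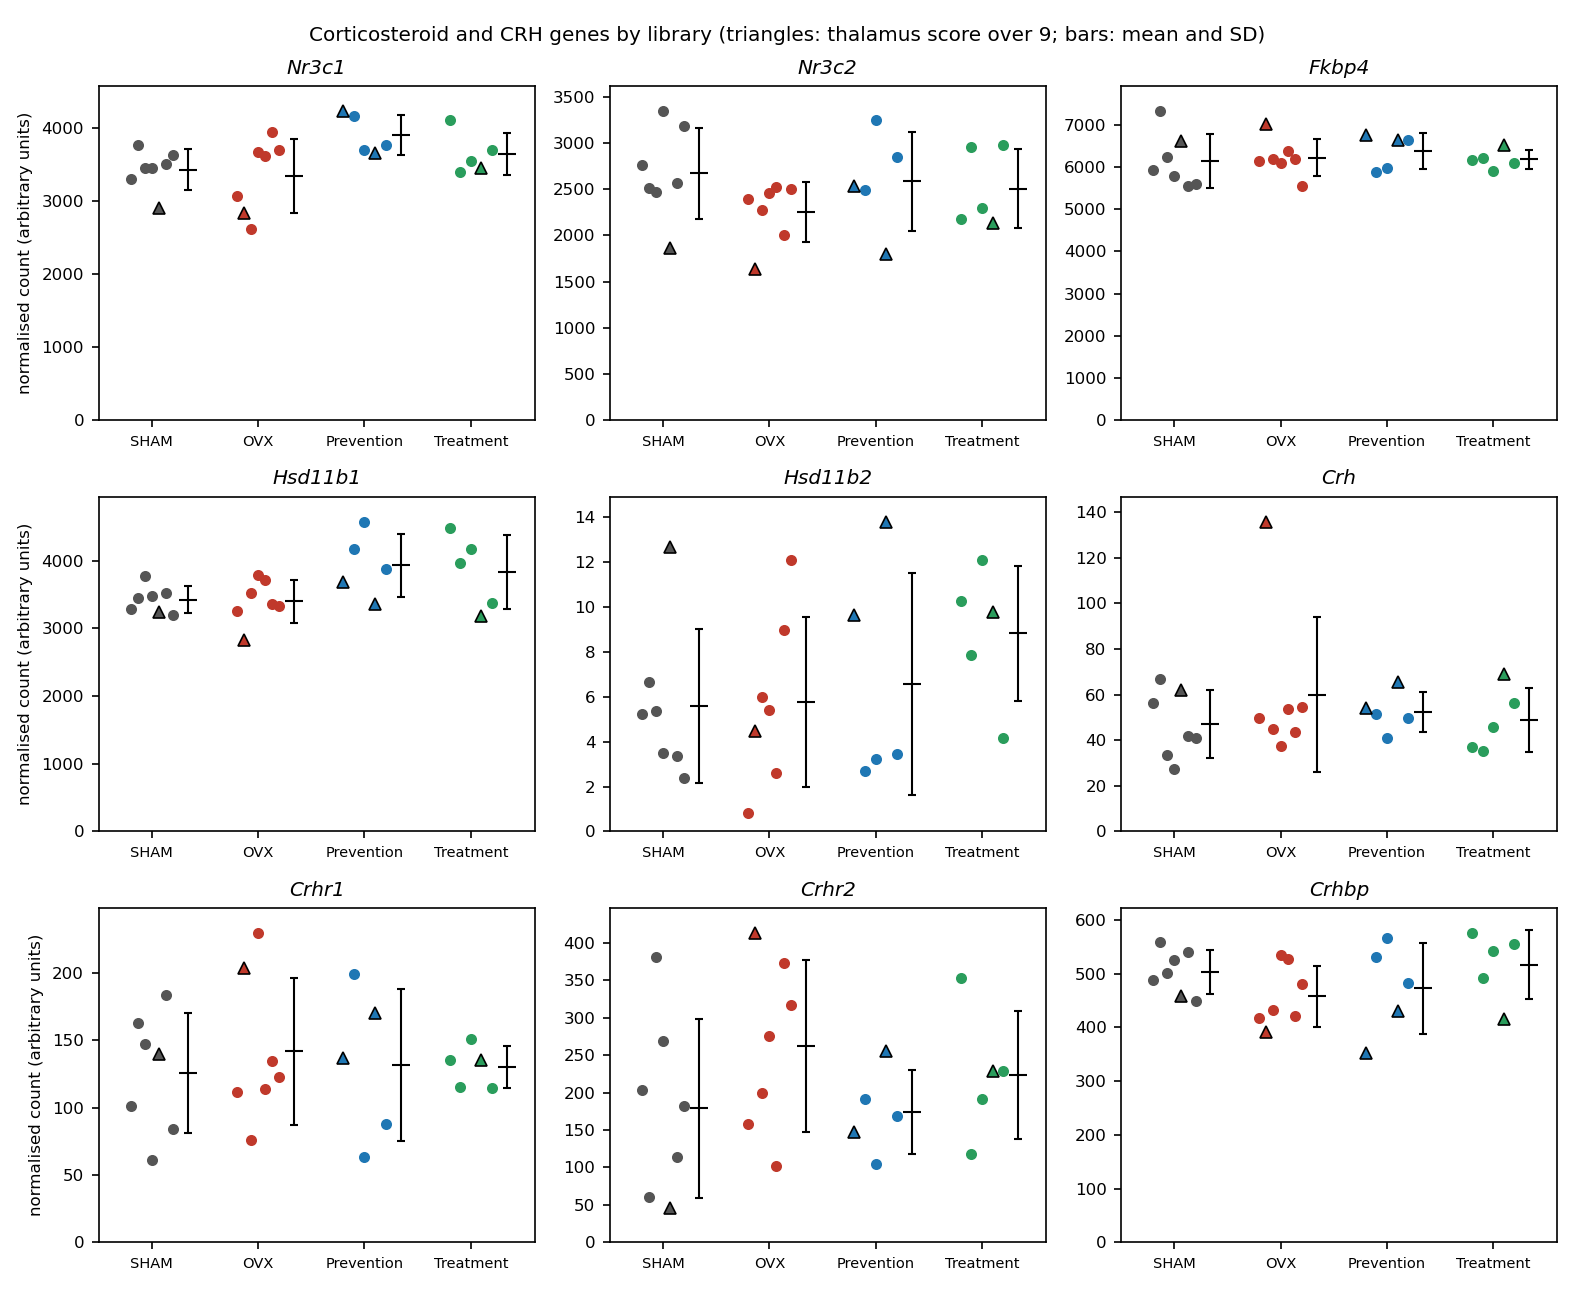
Normalised counts of the 9 genes by library, with libraries of high thalamus score as triangles and the mean and SD of each group as bars. The lowest Nr3c2 library of every group is a triangle, and for all 9 genes the groups overlap.

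Fkbp4 encodes FKBP52, a cochaperone that favours hormone binding and nuclear transport of the glucocorticoid receptor. Its values were the tightest of the 9 genes, from 5541 (SHAM 6) to 7332 (SHAM 2), a coefficient of variation of 7.23%. Group means were 6377 ± 417 in Prevention, 6224 ± 430.4 in OVX, 6182 ± 228 in Treatment and 6150.1 ± 643 in SHAM, all within 1 SD of each other. The 6 changes between groups lay between -0.04 (Treatment minus Prevention) and 0.06 (Prevention minus SHAM), and the 95% interval of the latter was -0.07 to 0.18. The highest library was a thalamus-rich one in OVX (OVX 2, 7009), Prevention (Prevention 1, 6761) and Treatment (Treatment 6, 6530.1).

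The corticosterone-regenerating enzyme gene Hsd11b1 came closest to separating the estradiol groups from the vehicle groups. Prevention libraries measured 3679, 4168, 4573, 3361 and 3874, and Treatment libraries 4478, 3967, 4169.8, 3184 and 3369.7. OVX libraries ran from 2832 through a median of 3362 to 3790.4, and SHAM libraries from 3201 through a median of 3440.2 to 3772. In both estradiol groups 3 of 5 libraries lay above every OVX library, and the others lay within the OVX range. Group means were 3931 ± 464 in Prevention and 3834 ± 544 in Treatment, against 3419 ± 199 in SHAM and 3400.4 ± 319 in OVX.

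OVX minus SHAM for Hsd11b1 was -0.01 (SE 0.08, 95% interval -0.17 to 0.14). Prevention lay 0.21 (SE 0.08) above OVX, which is 15.4% on the linear scale, with an unadjusted p of 0.0198 and an adjusted p of 0.181 (limma). It lay 0.20 (SE 0.08) above SHAM, with an unadjusted p of 0.0268 and an adjusted p of 0.302 (limma). Treatment lay 0.17 (SE 0.08) above OVX, with an unadjusted p of 0.0555 and an adjusted p of 0.699 (limma). Treatment and Prevention differed by -0.04 (95% interval -0.22 to 0.14).

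These Hsd11b1 values depended on which libraries and terms were used, in opposite directions. The lowest Hsd11b1 library in OVX, Prevention and Treatment was a thalamus-rich one (OVX 2, Prevention 4 and Treatment 6). With the thalamus score as a covariate the Prevention minus OVX value was 0.26 (SE 0.07) with an adjusted p of 0.0316 (limma). That fit called 655 of all 16119 genes in this comparison, against 49 without the score. Without the 5 thalamus-rich libraries the value was 0.27 (SE 0.08), and the adjusted p was 0.209 over the 19 libraries left. With the 7-library set as a term the value was instead -0.04 (SE 0.14) against OVX and -0.05 (SE 0.14) against SHAM. That term rests on Treatment, the only group with libraries of both sets. There the set of 2 libraries measured 4478 and 3967, and the set of 3 measured 4169.8, 3184 and 3369.7. The value of 3184 belongs to the thalamus-rich Treatment 6, so the term also carries that difference. Within the 17 libraries of the lower set, Treatment lay 0.07 (SE 0.09) above OVX. For Prevention, estradiol and the library set cannot be told apart within a set.

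Hsd11b2, whose product inactivates corticosterone, was near the limit of detection with a mean of 6.52 and values from 0.837 (OVX 1) to 13.8 (Prevention 4). Means were 5.6 ± 3.44 in SHAM, 5.77 ± 3.8 in OVX, 6.56 ± 4.94 in Prevention and 8.83 ± 3 in Treatment. The SDs were a large share of each mean and the ranges of the 4 groups overlapped. Differences between groups were not tested. The highest Hsd11b2 library in SHAM (SHAM 5, 12.7) and both of the highest in Prevention (Prevention 4 and 1, at 13.8 and 9.63) were thalamus-rich.

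**Figure D2:**
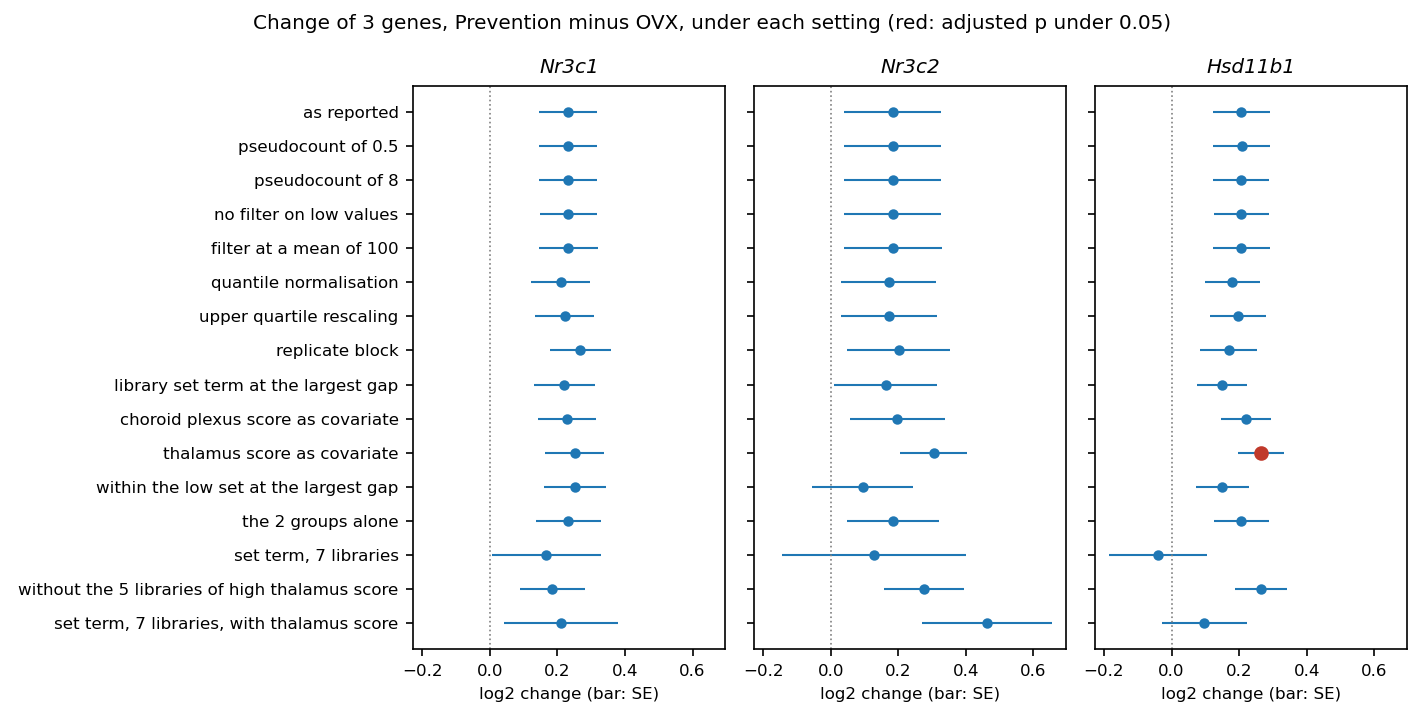
Prevention minus OVX change of the receptors Nr3c1 and Nr3c2 and of Hsd11b1 under each setting, with SE. Nr3c1 stays between 0.17 and 0.27, whereas Hsd11b1 ranges from -0.04 with the set of 7 libraries as a term to 0.27 without the thalamus-rich libraries.

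Crh, the peptide of the stress axis, was low in the hippocampus, with a mean of 52.3. It measured 54.3, 51.3, 41.2, 65.7 and 49.7 in Prevention and 37.2, 35.5, 46, 69 and 56.2 in Treatment. SHAM libraries ran from 27.5 through 42 to 67, and OVX libraries from 37.6 through 49.8 to 136. The value of 136 belongs to OVX 2, and the next highest OVX library measured 54.7. The same library had the highest hypothalamus score, 8.99 against 5.00 to 7.82 elsewhere. The defining hypothalamic markers Avp, Oxt, Hcrt and Pmch were above 0 in every library. The 8 hypothalamic markers summed to 333 to 15321 in OVX, 329 to 670.04 in SHAM, 331 to 9807 in Prevention and 355 to 4512 in Treatment, and their part in the Crh values was not tested.

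OVX minus SHAM for Crh was 0.28 (SE 0.24, adjusted p = 0.903, limma), and it was 0.06 without OVX 2. Prevention minus OVX was -0.08 with this library and 0.14 without it. The other 5 comparisons of Crh gave changes between -0.21 (Treatment minus OVX) and 0.20 (Prevention minus SHAM), with adjusted p-values of 0.805 to 0.989. The remaining peptides of the family could not be followed: the urocortin genes Ucn, Ucn2 and Ucn3 had means of 2.13, 2.08 and 3.31 and were not tested.

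Crhr1, the main brain receptor of CRH, varied 3.75-fold between libraries, with no group apart from the others. It measured 137, 199.7, 63.7, 170.01 and 88.2 in Prevention, 135, 115, 151, 135 and 114 in Treatment, 61.3 through 139.9 to 184 in SHAM and 76.1 through 123 to 229.9 in OVX. The means were 142 ± 54.8 in OVX, 132 ± 56.2 in Prevention, 130.3 ± 15.5 in Treatment and 126 ± 44.5 in SHAM, so that the largest gap between group means was smaller than the SD of OVX, Prevention or SHAM. All 6 changes lay between -0.14 and 0.17, with standard errors of 0.26 to 0.31. The lowest and highest ends of their 95% intervals were -0.74 and 0.74.

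Crhr2, the receptor that prefers urocortins, was the most variable tested gene of the system, from 45.7 (SHAM 5) to 413 (OVX 2). SHAM libraries ran from 45.7 through 182 to 381, and OVX libraries from 102 through 276 to 413. Prevention libraries measured 147, 191, 105, 256 and 169, and Treatment libraries 352, 118, 191, 228 and 228. OVX minus SHAM was 0.73 (SE 0.39, 95% interval -0.08 to 1.54, adjusted p = 0.812, limma). Both extremes came from thalamus-rich libraries, and without the 5 of them the value was 0.33 (SE 0.38). No Prevention library lay above the OVX median, and Prevention minus OVX was -0.51 (SE 0.43, adjusted p = 0.563, limma).

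Crhbp encodes the binding protein that limits free CRH. It measured 351, 530.1, 566, 431 and 483 in Prevention, 576, 493, 543, 415 and 555 in Treatment, 449 through 501 to 558 in SHAM and 391 through 432 to 535 in OVX. Of the 7 OVX libraries, 4 lay below every SHAM library, and OVX minus SHAM was -0.14 (SE 0.10, adjusted p = 0.852, limma). Treatment minus OVX was 0.17 (SE 0.11, adjusted p = 0.725, limma), and 3 of the 5 Treatment values exceeded the OVX maximum. The lowest library was thalamus-rich in OVX, in Treatment and in Prevention, where the lowest pair were Prevention 1 and 4. Without these libraries Treatment minus OVX was 0.21 (SE 0.08, unadjusted p = 0.0214, adjusted p = 0.718).

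Crhbp also moved with the choroid plexus score across the 24 libraries. Pearson's r was -0.59 (permutation p = 0.00259, adjusted over 18 relations 0.0466) and Spearman's rho -0.57 (permutation p = 0.00389, adjusted 0.07). The r was -0.52 without the 2 libraries farthest from the median score, -0.58 after centring each group, -0.50 in the 17 libraries of the lower set and -0.77 in the 7 of the higher. Over the 19 libraries without a high thalamus score it was -0.38. For Crhr2 the relation ran the other way, with r = 0.50 (permutation p = 0.013, adjusted 0.078), rho = 0.45 (adjusted p = 0.133) and r = 0.61 without the 2 farthest libraries. It was 0.62 in the lower set, 0.04 in the higher set and 0.46 without the thalamus-rich libraries. The defining choroid plexus markers Ttr, Folr1 and Kl were above 0 in every library, and the sum of the 9 markers measured ran from 5262 to 194537 in SHAM, 4653 to 105378 in OVX, 5706 to 103616 in Prevention and 4245 to 103308 in Treatment. Among the 19 libraries of low thalamus score, Nr3c1 and the thalamus score gave r = 0.58 (permutation p = 0.00893, adjusted 0.078) and rho = 0.55 (adjusted p = 0.106). The r was 0.60 without the 2 farthest of these libraries and 0.68 within the lower set. The 5 thalamus-rich libraries did not continue this relation: against the others of their group, Nr3c1 differed by -0.28 in SHAM, -0.27 in OVX, 0.03 in Prevention and -0.09 in Treatment on the log2 scale. Over the 19 libraries of low thalamus score, that score gave r = -0.16 with Fkbp4, 0.06 with Hsd11b1 and 0.47 with Hsd11b2. It gave 0.01 with Crh, 0.37 with Crhr1, 0.53 with Crhr2 and 0.07 with Crhbp. None of the other relations had an adjusted p below 0.05.

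**Figure D3:**
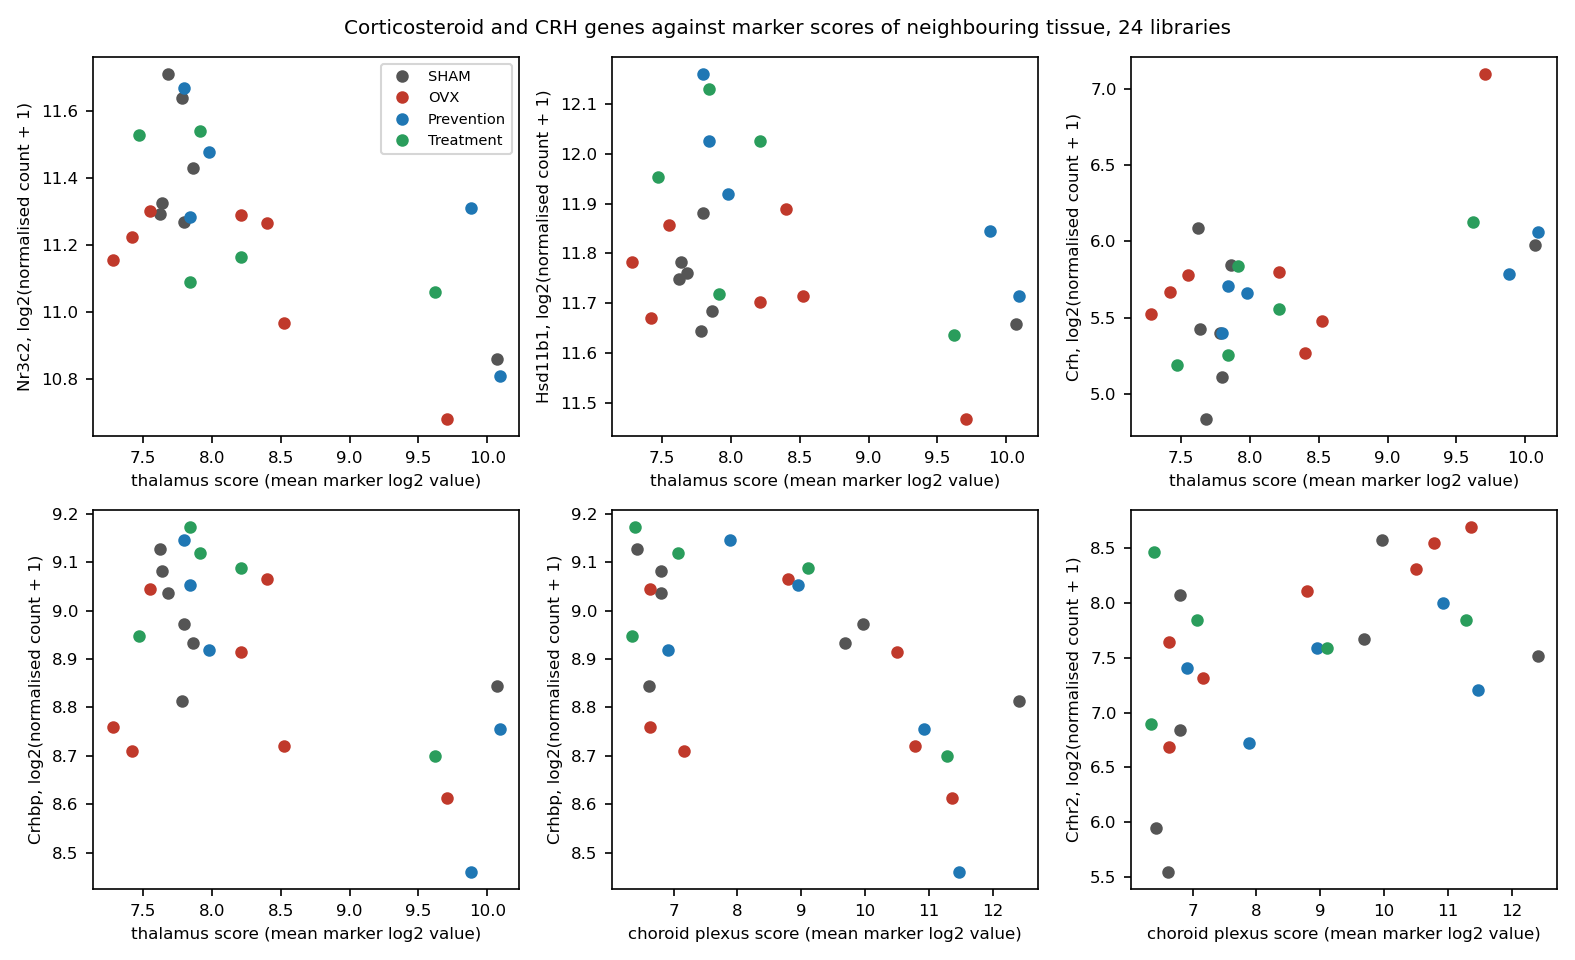
Log2 values of Nr3c2, Hsd11b1, Crh, Crhbp and Crhr2 against the thalamus or choroid plexus score of the same library, coloured by group. The 5 libraries with a thalamus score above 9 include the 3 lowest values of Nr3c2 and of Crhbp and the 2 highest of Crh, and Crhbp is lower where the choroid plexus score is higher.

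The counts for the 8 tested genes were read against those over all genes. At an adjusted p under 0.05 (limma), OVX versus SHAM called 0 of the 8 genes and 0% of all 16119 genes, of which 1007 (6.25%) had an unadjusted p under 0.05, as did 0 of the 8. Prevention versus OVX called 0 of the 8 against 49 genes (0.304%) of the whole table. At the unadjusted threshold it held 2 of the 8, Nr3c1 and Hsd11b1, against 18.6% of all genes. Prevention versus SHAM called 0 of the 8 against 57 genes (0.354%), and the same pair passed unadjusted, against 13.3% of all genes. With 8 genes, a count of 2 is near either background. Treatment versus OVX called 0 of the 8 and 0% of all genes, with 0 of the 8 against 7.19% (1159 genes) at the unadjusted threshold. Treatment versus Prevention called 0 of the 8 and 0% of all genes, with 0 of the 8 against 5.38% (868 genes) unadjusted. Treatment versus SHAM called 0 of the 8 against 1 gene (0.0062%) of the whole table, with 0 of the 8 against 6.1% (983 genes) unadjusted. The comparisons with OVX share its 7 libraries and those with SHAM share its 7, so they are not independent of each other.

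No gene of the 9 had groups without overlap in any comparison. Over all tested genes, the share without overlap was 0.0248% in OVX versus SHAM, 1.86% in Prevention versus OVX, 0.298% in Treatment versus OVX, 1.2% in Treatment versus Prevention, 2.48% in Prevention versus SHAM and 0.484% in Treatment versus SHAM. The median change of the 8 genes was 0.005 in OVX versus SHAM, 0.03 in Prevention versus OVX and 0.06 in Treatment versus OVX, beside medians over all genes of 0.004, 0.001 and -0.002. It was -0.04 in Treatment versus Prevention, 0.12 in Prevention versus SHAM and 0.08 in Treatment versus SHAM, beside -0.002, 0.003 and 0.004. The residual SD of Crhr2, 0.80 on the log2 scale, exceeded that of 97.5% of tested genes. The SD of Nr3c2 was 0.27, at the 74.6th percentile, and that of Fkbp4, at 0.11, lay at the 29.7th percentile. Among genes of similar mean level the percentiles were 98.2 for Crhr2, 96.8 for Nr3c2 and 58.2 for Fkbp4.

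**Figure D4:**
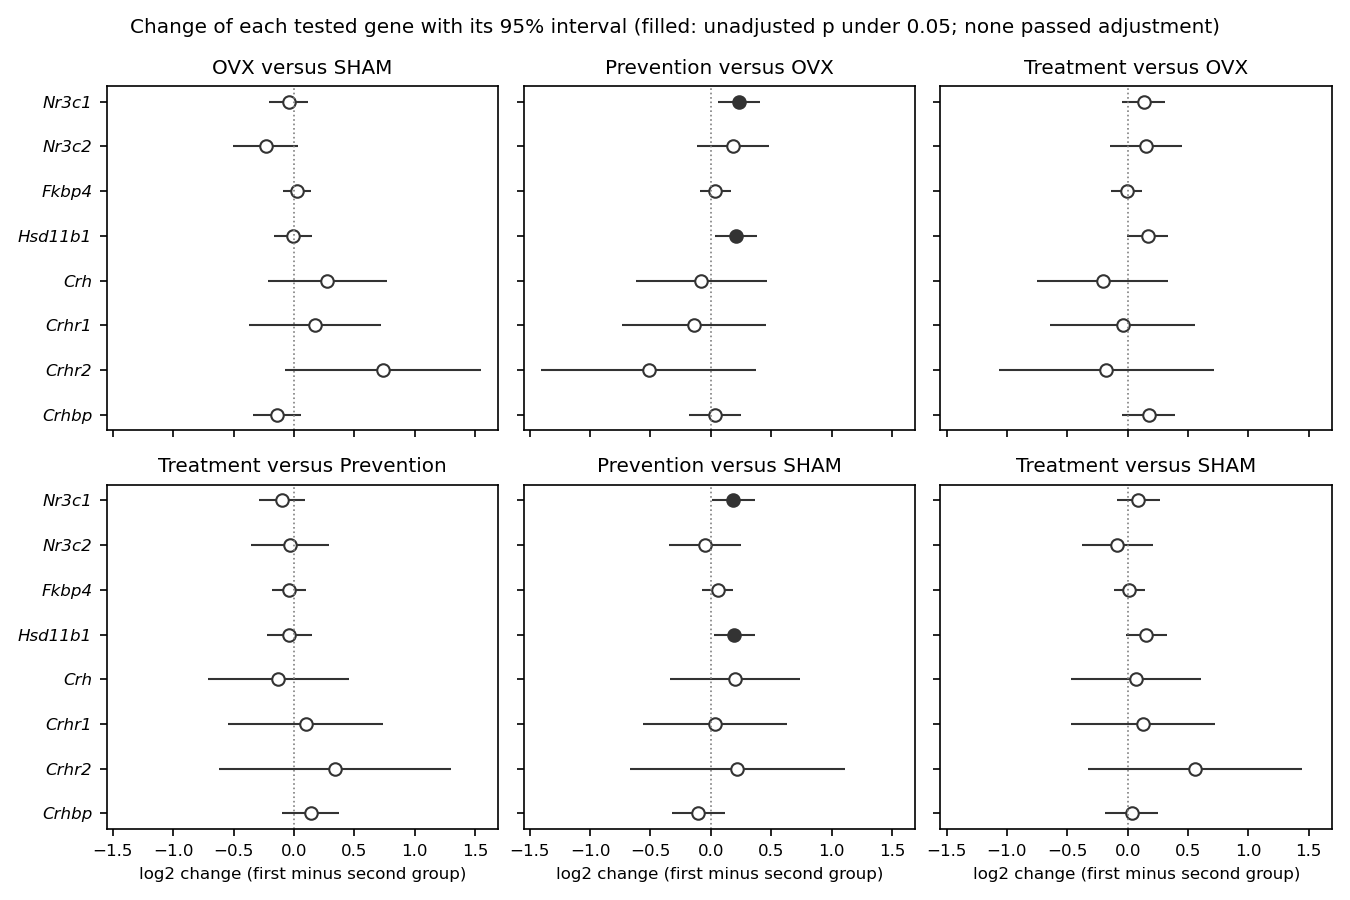
Log2 change of each of the 8 tested genes in the 6 comparisons with its 95% interval, filled where the unadjusted p is under 0.05. The filled points are Nr3c1 and Hsd11b1 in the comparisons of Prevention with OVX and SHAM, and the intervals of Crh, Crhr1 and Crhr2 are the widest.

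Each gene was also matched to the genes whose log2 values followed it most closely over the 24 libraries, among 13507 genes with a mean of at least 50, as a description in which shared tissue composition and depth also enter. Nr3c2 was followed by Gria1, a subunit of AMPA glutamate receptors (r = 0.94), Zfp238 (r = 0.94) and Plppr4 (r = 0.93), and these correlations were 0.95, 0.93 and 0.93 after centring each group. Nr3c1 was followed by Lrrc58 (r = 0.87), Arhgap5 (r = 0.86) and Camk4, a calcium-dependent kinase (r = 0.86). Hsd11b1 was followed by Rasa2 (r = 0.86), Pum2 (r = 0.83) and Dnal1 (r = 0.82), and Fkbp4 by Pcyt1a (r = 0.75), Ubac1 (r = 0.73) and Glt1d1 (r = 0.72).

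In the CRH system, Crh was followed by Fgl2 (r = 0.84), Pmch, which encodes the lateral hypothalamic peptide melanin-concentrating hormone (r = 0.78), and Syt6 (r = 0.76). All correlations of Crh include OVX 2, its highest library at 136, and were not formed without it. Crhr1 was followed by Cux2, a transcription factor of upper cortical layers (r = 0.91), Olfm2 (r = 0.89) and Coro6 (r = 0.87). Crhr2 was followed by Rab36 (r = 0.82), Fam92b (r = 0.78) and Ano2 (r = 0.78), and Crhbp by Tmem181 (r = 0.82), Etv1 (r = 0.82) and Csmd1 (r = 0.79). Among the 9 genes themselves, Nr3c2 ran opposite to Crhr1 (r = -0.62) and Crh (r = -0.62), and Hsd11b1 ran with Crhbp (r = 0.59) and opposite to Crh (r = -0.57).

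Genes that surround the receptors were read from lists in the same fit. The lists were chosen with earlier results of these data known, so counts within a list are description and no independent test. Of 13 receptor chaperones and cochaperones, 0 passed in any comparison. The smallest unadjusted p belonged to Hspa8, a constitutive heat shock cognate, in Prevention versus OVX: 4005 ± 165 against 3244 ± 331 (0.31, SE 0.08, adjusted p = 0.0655, limma). All 5 Prevention libraries lay above every OVX library, and 1.86% of all tested genes had groups without overlap in this comparison. With the 7-library set as a term the Hspa8 value was 0.08 (SE 0.14, unadjusted p = 0.6). Hspa4 gave 10660.4 ± 389.9 against 9967 ± 434 in the same comparison (0.10, adjusted p = 0.153), and the cochaperone Dnajb1 gave 2277 ± 164 against 1976 ± 269 in Treatment versus SHAM (0.21, adjusted p = 0.7). The median change of the 13 in Prevention versus OVX was -0.07, beside 0.001 over all genes.

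Of 10 nuclear receptor coregulators, 0 passed in any comparison. In OVX versus SHAM 10 of 10 had a negative change (median -0.10, beside 0.004 over all genes), whereas 51.7% of all genes had a positive one. In Prevention versus OVX 10 of 10 had a positive change (median 0.12, beside 0.001), as had 50.2% of all genes. In Treatment versus OVX 9 of 10 had one (median 0.10, beside -0.002), as had 49.4% of all genes. In this order, 4, 5 and 2 of the 10 had an unadjusted p under 0.05 (limma), beside 6.25%, 18.6% and 7.19% of all genes. These comparisons share the OVX libraries, so the opposite signs are not independent. The acetyltransferase gene Ep300 measured 878 ± 42.2 in Prevention against 706 ± 97.4 in OVX (0.33, SE 0.09, adjusted p = 0.0773, limma). The mediator subunit gene Med1 measured 2007 ± 126 against 1747 ± 139 (0.20, adjusted p = 0.103), and the corepressor gene Ncor1 8410.1 ± 411 against 7620.1 ± 449.8 (0.14, adjusted p = 0.125). With the thalamus score as a covariate the adjusted p-values were 0.049, 0.0199 and 0.0271 (limma). That fit called 655 of all 16119 genes in Prevention versus OVX, against 49 without the score. With the 7-library set as a term the values were 0.03 (SE 0.16) for Ep300, -0.02 for Med1 and -0.05 for Ncor1.

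Genes of steroid access and local synthesis were mostly low. Of 10 listed, 8 were in the table and 7 were tested, and 0 passed in any comparison. Cyp11a1, the side-chain cleavage enzyme that starts steroid synthesis, measured 14.7 ± 3.16 in Treatment against 20.4 ± 4.43 in OVX (-0.45, SE 0.21, adjusted p = 0.69, limma). The 21-hydroxylase gene Cyp21a1 measured 109 ± 24.2 in Prevention against 145 ± 40.8 in OVX (-0.38, adjusted p = 0.288). Abcb1a, an efflux pump of the blood-brain barrier that exports some glucocorticoids, measured 2807 ± 114 in Treatment against 2602 ± 195 in Prevention (0.11, adjusted p = 0.949).

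Among 17 glucocorticoid-responsive genes, 1 passed in 1 comparison. Pdk4, a mitochondrial kinase that restrains pyruvate oxidation, rose in Treatment relative to SHAM. It measured 369, 294, 365, 508 and 614 in the Treatment libraries. In SHAM it ran from 73.4 through 128 to 177, without overlap, as did 0.484% of all tested genes. The change was 1.72 (SE 0.23, adjusted p = 0.00238, limma), or 3.3-fold, and it was 1.94 (adjusted p = 0.00715) within the 17 libraries of the lower set. OVX libraries ran from 121 through 163 to 273, and Prevention libraries measured 282, 345, 182, 285 and 146. Treatment minus OVX for Pdk4 was 1.26 (unadjusted p = 1.6e-05, adjusted p = 0.258, limma). These ranges did not overlap either, as for 0.298% of all tested genes. OVX minus SHAM was 0.46 (unadjusted p = 0.0438, adjusted p = 0.795, limma), so Treatment versus SHAM also holds the ovariectomy difference. In Treatment versus OVX 17 of the 17 genes had a positive change (median 0.27, beside -0.002 over all genes), 9 of them at an unadjusted p under 0.05 beside 7.19% of all genes, and 0 passed adjustment. In Prevention versus OVX 11 of 17 were positive (median 0.10), and 0 passed. As this list too was chosen with earlier results of these data known, its counts of signs are not a test. Pdk4 is the only gene called in Treatment versus SHAM over the whole table, and as background it also responds to fasting.

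Of 14 genes of CRH receptor signalling, 1 passed in 1 comparison. Prkaca, the catalytic subunit of protein kinase A that acts downstream of CRH receptors and many others, rose in Prevention relative to SHAM. It measured 6160.5, 6528, 6365, 6609.6 and 6185 in Prevention, all above the SHAM range of 5492 through 5651 to 5898. Over all tested genes, this comparison called 57 (0.354%), and 2.48% had groups without overlap. The Prkaca change was 0.17 (SE 0.04, adjusted p = 0.0433, limma), a rise of 12.2%. With the 7-library set as a term it was 0.14 (SE 0.07, adjusted p = 0.936), and without the thalamus-rich libraries 0.17 (SE 0.05, adjusted p = 0.17). Leaving out any SHAM library but SHAM 5, any Prevention library but Prevention 5, or Treatment 7 also took the adjusted p above 0.05, to between 0.0568 and 0.159, as did no filter on low values (0.0545), quantile scaling (0.0692) and leaving out Prevention 3 and Treatment 1 together (0.0639). In the other 5 comparisons 0 of the 14 passed.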

How the data were processed

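RNA of the hippocampus was extracted with TRIzol and column purification with DNase treatment, per the labels' protocols, and sequenced in 24 libraries of 4 groups taken with their replicate numbers from the labels. The authors deposited a signal, normalised counts per gene and library; kallisto 0.43 and DESeq2 (no version) are named per the submitters' processing notes. The sources used here do not give genome build, annotation or filters. Whole reads were not recovered for most genes, so no count model was run, and depth was estimated from the smallest step of each library. Such scaling makes levels comparable between libraries, not between genes of different length.

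Values were analysed as log2(normalised count + 1) with limma 3.58.1 in R 4.3.3. Genes with a mean of at least 10 were tested (16119 of 20318), in 1 fit of all 24 libraries. Group means were fitted with moderated variances that follow a trend over expression, and p-values of the 6 comparisons were adjusted by Benjamini-Hochberg over all tested genes, at 0.05. The fit was tested on simulated data. Relations with marker scores used 100000 permutations, two-sided. No pair of libraries was identical, and the highest correlation between 2 libraries was 0.991. Alternatives were pseudocounts of 0.5 and 8, no filter or a mean of 100, quantile and upper quartile scaling, the replicate number as a block, library set, choroid plexus or thalamus terms, subsets of libraries, each pair of groups alone and each library left out. The terms and subsets for the 7 libraries above 16 and the 5 of high thalamus score were chosen after seeing the data. The text names all 9 genes, the 3 genes most correlated with each, and of each list the genes that passed or, without any, the 3 with the smallest p. The 9 genes and the lists were chosen with earlier results of these data known. Plots used matplotlib 3.10.9 in Python 3.11.15.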

Additional observations from a re-analysis of the deposited data

Results flagged for a closer look

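Crh in OVX 2 stood apart from its group, at 135.8 normalised counts against 37.6 to 54.7 in the other OVX libraries. It was the only value of this kind among 36 groups of libraries checked (9 genes in 4 groups). Chance alone marks a library in about 1 in 20 groups, so 1 of 36 is no excess. OVX 2 also held the highest hypothalamus score (8.99), a thalamus score of 9.71 and a choroid plexus score of 11.4, and the part of these in the Crh value was not tested.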

How the results depend on the processing

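No gene of the 8 passed in any comparison under any alternative, except Hsd11b1 in Prevention versus OVX with the thalamus score as a covariate (1 gene called, adjusted p 0.0316), out of 1898 alternative values; the alternatives' smallest adjusted p is this one. With the set of 7 libraries as a term, Hsd11b1 turned to -0.0406 against OVX and -0.0520 against SHAM in Prevention, and Med1 and Ncor1 to -0.0232 and -0.0486 against OVX. Of the 1898 values 95 changed sign, the others all from changes with an unadjusted p above 0.05. Genes called in Prevention versus OVX (49) were 97 at a filter of 100, 3 with the replicate block, 25 with the set at the largest gap as a term or within its low set, 256 with the choroid plexus and 655 with the thalamus score, 5 with the 2 groups alone, and 0 with the 7-library set term, with that term and the thalamus score, or without the 5 thalamus-rich libraries (573, 811 and 2172 genes at an unadjusted p under 0.05, limma). In Prevention versus SHAM (57) they were 88 at a filter of 100, 4 with the block, 128 with the choroid plexus and 135 with the thalamus score, 156 with the 2 groups alone, and 0 in the same last 3 settings (774, 797 and 1928 unadjusted). In Treatment versus SHAM (1) they were 3 with quantile scaling, 0 with the block (906 unadjusted), where Pdk4 had an adjusted p of 0.0513 and Prkaca in Prevention versus SHAM 0.18, 6 with the largest-gap term, 4 within its low set and 6 with the 2 groups alone. In Treatment versus Prevention (0) they were 2 at a pseudocount of 8 and 3 with the thalamus score. Leaving out each library gave 1 (without Prevention 3) to 481 (without OVX 7) in Prevention versus OVX, where 15 libraries moved the count over 1.5 times, 10 (without Prevention 2) to 153 (without SHAM 5) in Prevention versus SHAM, 0 to 11 (without Treatment 2) in Treatment versus Prevention, and 1 to 5 (without Prevention 2) in Treatment versus SHAM. The cause was not tested. Libraries that share a number did not pair: 8 of 30 same-number pairs correlated over 0.1 (range -0.44 to 0.37), and 3 of 24 libraries correlated best with their own number. No comparison was possible within the high set at the largest gap, which holds only Prevention 3 and Treatment 1, and within the 7 libraries only Treatment versus Prevention. Quantile or upper quartile scaling moved the median change of all genes to at most 0.0123 from 0. Hsd11b2 was too low to be tested. The residual SDs of Crh, Crhr1 and Crhr2 were 0.46, 0.53 and 0.80 on the log2 scale, so for them only large differences could pass. Among genes of similar mean level these SDs lay at percentiles 77.6, 92.6 and 98.2.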
